A study of Mus musculus with 22 samples.

Results

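The extracellular matrix genes described here are the mouse protein-coding genes whose symbol names a collagen chain (Col, a number, a, a number), a laminin chain (Lama, Lamb, Lamc), a fibulin, a hyaluronan and proteoglycan link protein (Hapln) or a member of the Adamts family, together with Fbn1, Fbn2, Fn1, Acan, Bcan, Ncan, Vcan, Tnc and Tnr. The rule used symbols and no measured value, and it found 96 genes among the 39056 in the count table. All 96 had at least 1 read. A filter asked for a sum of 500 or more reads and for reads in 3 or more libraries. It kept 67 members and removed 29, whose sums lay between 36 and 434 reads over all 22 libraries. Members that did not pass are given as levels only. Exons of 16 of the 67 overlap a gene on the opposite strand, and since the strand setting of the counting was not given in the sources used here, reads of the pair cannot be told apart. These are Adamts4, Adamts8, Adamts9, Col4a1, Col4a2, Col5a1, Col6a4, Col9a3, Fbn1, Fbn2, Fn1, Lama2, Lama3, Lamc3, Tnc and Tnr.

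RNA of the prefrontal cortex was sequenced in 11 adult male transgenic mice on a C57BL/6J background, which carried tetO-EGFP/Rpl10a and CaMKIIα-tTA, so that ribosomes with the EGFP-tagged Rpl10a protein form in cells in which the CaMKIIα promoter drives tTA. Ribosomal RNA engagement was measured in TRAP libraries (RNA pulled down with the tagged ribosomes), and total-RNA was taken from the same homogenate before the pull-down. Control mice received saline (n = 3), EtOH mice received ethanol to 2 g/kg per day (n = 4), and EtOH + ABT-888 mice received the same ethanol with the PARP inhibitor ABT-888 at 25 mg/kg on day 4 only (n = 4). Treatment was intraperitoneal for 4 days and tissue was taken 2 h after the last injection. No group received ABT-888 without ethanol, so the effect of the inhibitor alone cannot be told apart from its effect with ethanol.

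The extracellular matrix of the brain has several layers. Basement membranes of laminins and type IV collagen wrap blood vessels and the brain surface, and fibrillar collagens, fibronectin and elastic fibres, to which fibulins and fibrillins belong, are found mainly around vessels and in the meninges. Between cells, and most densely in perineuronal nets around some inhibitory neurons, lecticans (Acan, Bcan, Ncan, Vcan) bind hyaluronan with the help of link proteins and are joined by tenascins, while Adamts proteases cut lecticans and process collagens.

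Levels are normalized CPM (each read count scaled to a common library size, with TMM factors over all 22 libraries). Differences are log2 fold changes ± SE from the quasi-likelihood test of edgeR, and p-values are adjusted by Benjamini and Hochberg's method over the 14072 genes tested. A gene is called when its adjusted p-value is under 0.05. TRAP libraries held between 6570957 and 22002618 reads and total-RNA libraries between 22132534 and 32421392. The members' share of all reads was 0.0635% to 0.119% in TRAP and 0.137% to 0.177% in total-RNA. The total-RNA pool mixes all cells, and in it fewer cells of a type and less RNA per cell cannot be told apart. In the marker lists, all 5 fibroblast, 5 endothelial, 5 microglia and 6 astrocyte genes were lower in Control_TRAP than in Control_total-RNA, and their summed level fell to between 1.27 and 4.83 CPM from between 33.7 and 43.8 CPM for the fibroblast list. Of the 6 excitatory neuron markers, Nrgn was higher in Control_TRAP, 4 were lower and Camk2a itself was not called (1883 against 2092 CPM), whereas 3 of 6 inhibitory neuron markers were higher and 1, Pvalb, was lower. Of all genes, 29.5% were higher and 30.4% lower. Among the EtOH_TRAP libraries, that of mouse 2 stood apart in the marker lists, at 207 CPM for astrocytes, 20.6 CPM for endothelial cells and 6.99 CPM for fibroblasts against at most 93.6, 4.90 and 2.00 CPM in the others, and the EtOH + ABT-888_TRAP library of mouse 3 had the highest fibroblast sum of its group (10.6 CPM).

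Fbln5 (fibulin 5, a secreted protein that binds elastin and integrins and is needed for elastic fibre assembly) was the member in which the ethanol response differed between the pools. It lies on chromosome 12 (101746565 to 101819055, minus strand, mm10). RefSeq gives it a pair of transcription starts, 635 bases apart. The second lies inside the GENCODE gene whose position is given here, and the first, with its whole window, lies upstream of it. The windows from 250 bases before to 50 after each start are shown because this gene carries the main result. Capitals mark GGGCGG, the core of the GC box, on either strand (CCGCCC on the other). The first window is chr12:101819070-101819369 and the second is chr12:101818435-101818734, both on the minus strand of GRCm38.p6.
Fbln5 first start: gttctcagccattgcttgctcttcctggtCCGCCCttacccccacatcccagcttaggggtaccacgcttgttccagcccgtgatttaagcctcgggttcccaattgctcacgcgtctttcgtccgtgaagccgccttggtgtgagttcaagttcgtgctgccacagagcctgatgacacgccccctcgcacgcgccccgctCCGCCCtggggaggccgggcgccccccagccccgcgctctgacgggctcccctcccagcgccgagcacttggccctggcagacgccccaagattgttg
Fbln5 second start: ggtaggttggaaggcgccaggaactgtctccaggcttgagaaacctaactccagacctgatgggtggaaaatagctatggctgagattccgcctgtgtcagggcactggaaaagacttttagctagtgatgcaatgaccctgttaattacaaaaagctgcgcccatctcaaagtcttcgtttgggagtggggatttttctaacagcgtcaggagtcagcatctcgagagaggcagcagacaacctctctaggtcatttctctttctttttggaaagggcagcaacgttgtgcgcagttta
The first window has 65.7% G and C, 24 CpG and 2 GGGCGG, and the second has 48.7%, 8 and 0. Among all 32851 RefSeq promoter windows of this length, the median was 52.7% and 7 CpG, and 35.7% held the GC box core on either strand. The sequence TATAAA, found in 13.6% of all windows on either strand, is in neither. Gene-level counts do not say which start was used. Of the 96 members, 68 have a window in this table.

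In TRAP, Fbln5 stood at 8.86, 7.42 and 6.43 CPM in the Control libraries (mice 1, 4 and 7), at 1.96, 1.49, 2.16 and 2.58 CPM in the EtOH libraries (mice 2, 5, 8 and 9), and at 4.02, 4.05, 4.12 and 4.05 CPM in the EtOH + ABT-888 libraries (mice 3, 6, 10 and 11). The ranges of the treatments do not overlap, with Control highest, EtOH lowest and EtOH + ABT-888 between them. In total-RNA, the same mice stood at 4.69, 4.73 and 4.53 CPM for Control, 10.1, 8.82, 5.29 and 6.16 CPM for EtOH, and 5.88, 4.99, 7.56 and 6.41 CPM for EtOH + ABT-888. Here all Control libraries lie below all ethanol-treated libraries, and the EtOH and EtOH + ABT-888 ranges overlap.

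The ratio of TRAP to total-RNA within a mouse, which uses both libraries of one animal, lay between 1.42 and 1.89 in Control, between 0.168 and 0.419 in EtOH and between 0.544 and 0.811 in EtOH + ABT-888. Each Control mouse had more Fbln5 in TRAP than in total-RNA and each of the 8 ethanol-treated mice had less, as in 0.163% of all genes. Of the 67 tested members, Adamts2 (a procollagen peptidase) was the other one split in this direction, with ratios of 1.12 to 1.36 in Control, 0.363 to 0.824 in EtOH and 0.201 to 0.815 in EtOH + ABT-888, but its EtOH interaction was not called (-1.11 ± 0.515, adjusted p = 1, edgeR). Col6a1 (a type VI collagen chain) was split as completely in the opposite direction, as in 0.128% of all genes, with ratios of 0.645 to 0.975 in Control, 1.202 to 2.61 in EtOH and 1.16 to 2.23 in EtOH + ABT-888, and its EtOH interaction was not called either (1.13 ± 0.831, adjusted p = 1). The interaction of ethanol with RNA pool, fitted over all 22 libraries, gave a log2 fold change of -2.60 ± 0.358 for Fbln5 (adjusted p = 0.00392, edgeR), the only one of the 67 tested members to pass, where 3 of all 14072 genes did (0.0213%). For EtOH + ABT-888 the interaction was -1.31 ± 0.352 (adjusted p = 1) and 0 members passed (0% of all genes). Without adjustment, 7 members had a p-value under 0.05 in the EtOH interaction (4.87% of all genes) and 8 in that of EtOH + ABT-888 (3.38%), and in the latter DESeq2 and edgeR's likelihood ratio test also called 0. With the mouse as a block, the EtOH interaction of Fbln5 was -2.55 (adjusted p = 0.0177), and it was called without any 1 of the 14 Control and EtOH libraries (adjusted p between 0.00166 and 0.0295).

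Within each pool the response of Fbln5 to ethanol was less secure. In TRAP it fell by 1.86 ± 0.32 on the log2 scale (adjusted p = 0.0103, edgeR), and the call was lost without Control_TRAP mouse 1 (adjusted p = 0.0677) or mouse 4 (0.0575). In total-RNA it rose by 0.72 ± 0.226 (adjusted p = 0.0444, edgeR), and the call held without EtOH_total-RNA mouse 8 or mouse 9 but was lost without mouse 2 (adjusted p = 0.105), mouse 5 (0.0971) or any Control_total-RNA library (mouse 1, 0.129, mouse 4, 0.129, and mouse 7, 0.132), and when all 22 libraries were fitted together (0.175). The direction was the same in each of these fits. Of the markers, few were called with ethanol in TRAP, where 2.47% of all genes were lower. The mural sum went from between 21.4 and 30.9 CPM in Control_TRAP to between 4.83 and 21.4 CPM in EtOH_TRAP (1 of 6 called lower, Tagln). The microglia sum went from between 11.9 and 25.0 CPM to between 4.595 and 31.8 CPM (1 of 5 called lower, P2ry12). In both lists only EtOH_TRAP mouse 2 reached the Control range, for the mural list at 21.394 CPM against 21.387 CPM in the lowest Control library. Mice 5, 8 and 9 lay below every Control library, at 4.83, 15.1 and 8.91 CPM for mural and 4.595, 9.73 and 7.48 CPM for microglia markers. The excitatory neuron list had a median of -0.94 (1 of 6 called lower, Neurod6). The part of these cell types in the fall of Fbln5 was not tested.

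**Figure D1:**
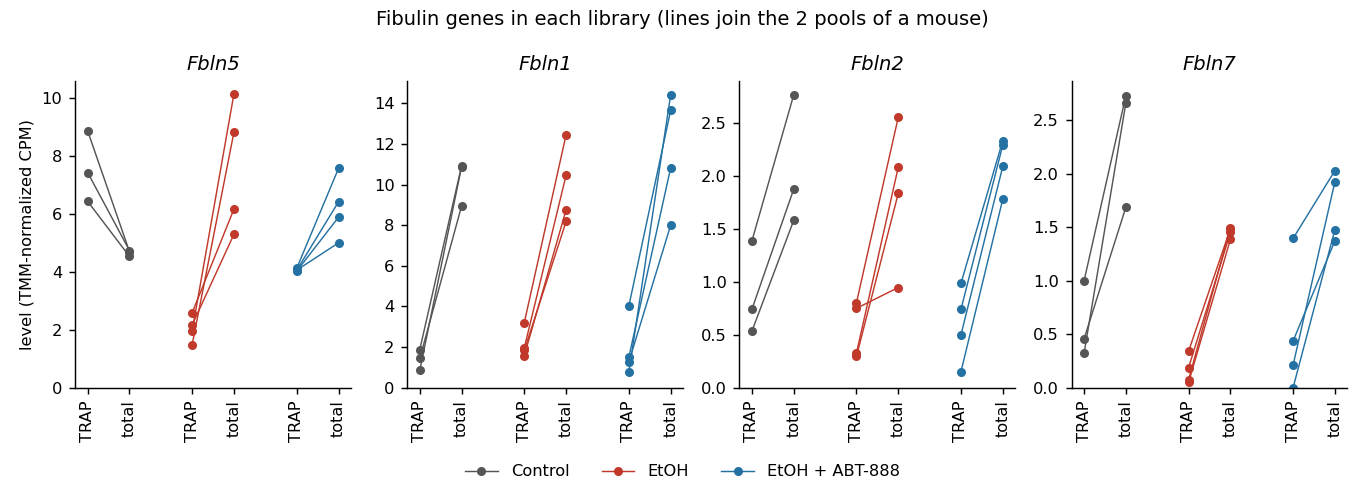
Level of each tested fibulin (normalized CPM, y axis, from 0) in TRAP and total-RNA for Control, EtOH and EtOH + ABT-888. Each point is a library and each line joins the pools of a mouse: the Fbln5 lines fall from TRAP to total-RNA in the 3 Control mice and rise in the 8 others, while those of Fbln1, Fbln2 and Fbln7 rise in every mouse.

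None of the other fibulins was called in the interaction. Fbln1 (a basement membrane and elastic fibre protein) stood at 1.39 CPM in Control_TRAP and 10.3 CPM in Control_total-RNA, and its EtOH interaction was 0.61 ± 0.536. Fbln2 (0.886 and 2.07 CPM) and Fbln7 (0.591 and 2.36 CPM) were also lower in TRAP, and their EtOH interactions were -0.64 ± 0.654 and -1.23 ± 0.871 (adjusted p = 1 for each of these 3 genes, edgeR). Fbln7 had the same sign as Fbln5 in TRAP (-1.86 ± 0.89 with ethanol, adjusted p = 0.232), but at between 0.0491 and 0.34 CPM in EtOH_TRAP it rests on few reads. The difference between Fbln5 and the other fibulins was not tested.

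Other genes of elastic fibres, listed as Eln, the Lox family, Efemp1, Efemp2, the Ltbp, Emilin and Mfap families, were 18, of which 9 passed the filter. In Control, 7 of the 9 were lower in TRAP and 0 higher, where 30.4% of all genes were lower. Ethanol called 0 of the 9 in TRAP, where 5.24% of all genes were called, and 4 in total-RNA, where 17.6% were. Of these 4, Lox (lysyl oxidase, which crosslinks elastin and collagen) was higher at 6.63 against 1.08 CPM in Control (2.64 ± 0.467, adjusted p = 0.00313, edgeR). Loxl3 (-1.04 ± 0.278), Efemp1 (-0.71 ± 0.202) and Ltbp4, which binds fibulin 5 (-0.67 ± 0.149), were lower. Fbn1 (fibrillin 1, the scaffold of microfibrils) was not called with ethanol in either pool, and in EtOH + ABT-888_total-RNA it stood at 9.86 CPM against 5.47 CPM in Control (0.85 ± 0.225, adjusted p = 0.125, edgeR).

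The comparison of TRAP with total-RNA in Control mice sets the level of each matrix RNA in the pull-down against that in the homogenate before it. A lower level in TRAP does not show that an RNA was missing from tagged ribosomes. Of the 67 tested members, 53 were called, 6 higher and 47 lower in TRAP, where 59.9% of all genes tested were called, 29.5% higher and 30.4% lower. The members' median log2 fold change was -1.33, against 0.02 over all genes. Groups did not overlap for 57 members, against 66.9% of all genes. EtOH mice gave 49 called members, 7 higher and 42 lower, against 50.7% of all genes called, 24.3% higher and 26.5% lower. EtOH + ABT-888 mice gave 44, 6 higher and 38 lower, against 41.0% of all genes, 19.5% higher and 21.5% lower. The members' medians were -1.64 and -1.50, against 0.03 and 0.05 over all genes, and groups did not overlap for 48 and 44 members, against 47.3% and 40.4% of all genes. Over the treatments, 33 members were lower in all 3 comparisons and 5 were higher in all 3, namely Adamts3, Adamtsl5, Col6a4, Lamb1 and Lamb3, where 19.2% of all genes were lower in all 3 and 16.8% higher. Fbln5 was called in opposite directions, higher in TRAP in Control (0.67 ± 0.194, adjusted p = 0.0107) and lower with EtOH (-1.91 ± 0.306, adjusted p = 0.000351, edgeR), with -0.61 ± 0.261 in EtOH + ABT-888 (adjusted p = 0.0805, called by DESeq2 at 0.029 and in one fit over all 22 libraries at 0.0318, and not in the other 4 alternatives).

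**Figure D2:**
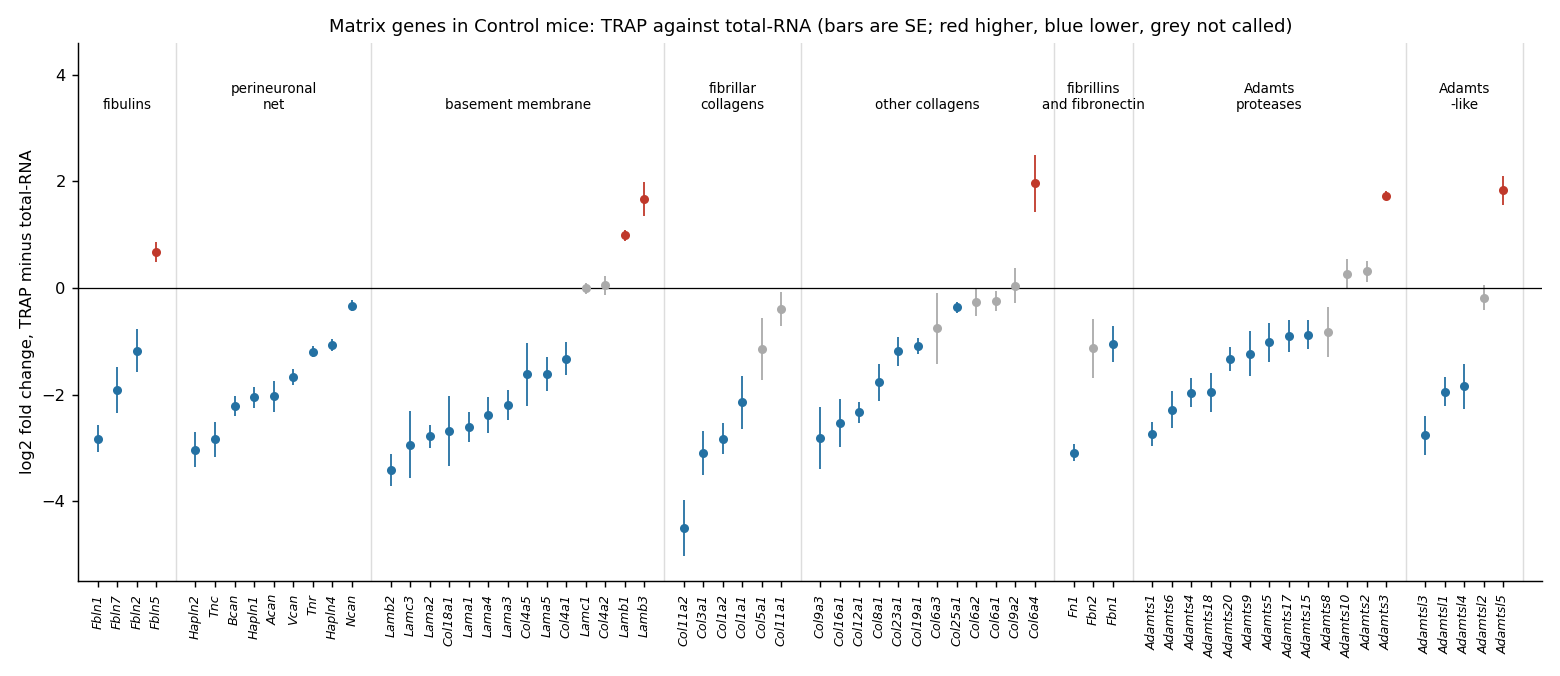
Log2 fold change of Control_TRAP minus Control_total-RNA (y axis) with its SE for 66 of the 67 tested members, grouped by kind and ordered by value (x axis). Red points were called higher in TRAP (6 genes), blue points lower (47) and grey points neither. All 9 tested lecticans, link proteins and tenascins, grouped as perineuronal net genes, lie below 0.

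Adamts3 (a procollagen peptidase that also processes the lymphatic growth factor VEGF-C) had the highest CPM among the members called higher in TRAP in Control. It stood at 129, 122 and 127 CPM in Control_TRAP against 37.4, 39.2 and 35.9 CPM in Control_total-RNA (1.73 ± 0.09, adjusted p = 1.19e-07, edgeR). The TRAP to total-RNA ratio within a mouse was between 2.41 and 4.27 over all 11 mice, so every mouse had more Adamts3 in TRAP. Lamb1 (the laminin beta 1 chain) was next, with 51.8, 47.0 and 49.3 CPM against 23.8, 23.2 and 26.7 CPM (0.99 ± 0.101). Lamb3, Adamtsl5 and Col6a4 were higher by 1.68 ± 0.318, 1.83 ± 0.272 and 1.96 ± 0.534. Col6a4 rested on low levels, between 1.71 and 5.10 CPM in Control_TRAP and between 0.291 and 1.28 CPM in Control_total-RNA. Lamc1 (the laminin gamma 1 chain, shared by most laminins) did not differ detectably between pools, with 44.5 against 44.2 CPM (-0.01 ± 0.0964).

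Among calls whose groups do not overlap, the 8 members with the largest fold toward total-RNA in Control were Col11a2, Lamb2, Col3a1, Fn1, Hapln2, Lamc3, Tnc and Fbln1. Fn1 (fibronectin) stood at 4.70, 5.32 and 5.63 CPM in Control_TRAP against 39.6, 52.9 and 40.3 CPM in Control_total-RNA (-3.09 ± 0.16). Lamb2 (a laminin chain of vascular basement membranes) was at 1.54 against 16.7 CPM (-3.41 ± 0.305), Col3a1 (type III collagen) at 0.315 against 2.84 CPM (-3.09 ± 0.406), Lamc3 at 0.742 against 4.68 CPM (-2.93 ± 0.625) and Col11a2 at 0.13 against 3.10 CPM (-4.50 ± 0.522). Col11a2 rests on only 1, 1 and 4 reads in the Control_TRAP libraries. Col3a1 has 2, 5 and 8 reads there, and Lamc3 has 15, 1 and 10. Hapln2, a link protein gene, was at 0.639 against 4.97 CPM (-3.03 ± 0.328), Tnc at 0.912 against 6.01 CPM (-2.84 ± 0.333) and Fbln1 at 1.39 against 10.3 CPM (-2.83 ± 0.254). The summed fibroblast, endothelial and mural lists move the same way between the pools, although 1 of the 6 mural markers was called higher in TRAP and 5 lower. Their part in these differences was not tested. By kind, and against 59.9% of all genes, 12 of 15 basement membrane genes were called (2 higher, 10 lower, median -1.62), 4 of 6 fibrillar collagens (all lower, -2.48), 8 of 12 other collagens (1 higher, 7 lower, -0.92), 10 of 13 Adamts proteases (1 higher, 9 lower, -1.02) and 4 of 5 Adamts-like genes (1 higher, 3 lower, -1.84).

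Col4a1 and Col4a2 encode the chains of the common type IV collagen trimer of basement membranes and start from opposite strands of chromosome 8. Their RefSeq starts lie 21 bases apart, and one window of 300 bases holds both, so it is shown here from the Col4a2 side (chr8:11312555-11312854, plus strand, GRCm38.p6, capitals as above).
Col4a2 and Col4a1 shared start region: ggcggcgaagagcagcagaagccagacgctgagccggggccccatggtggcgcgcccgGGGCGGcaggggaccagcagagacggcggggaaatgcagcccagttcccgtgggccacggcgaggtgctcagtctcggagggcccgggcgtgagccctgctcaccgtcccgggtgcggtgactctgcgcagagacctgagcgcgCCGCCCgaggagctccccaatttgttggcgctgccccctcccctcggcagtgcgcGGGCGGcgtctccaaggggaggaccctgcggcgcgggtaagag
It has 73.7% G and C, 33 CpG and 3 GGGCGG, and no TATAAA. In Control, Col4a1 was lower in TRAP (3.74, 2.66 and 5.80 CPM against 7.44, 13.9 and 9.12 CPM, -1.33 ± 0.309, adjusted p = 0.00308, edgeR), while Col4a2 was at 11.8, 12.4 and 15.9 CPM against 12.3, 15.4 and 10.8 CPM (0.05 ± 0.181, adjusted p = 0.813). Col4a1 libraries do not overlap between the pools and those of Col4a2 do. The pools also separated for Col4a1 and not for Col4a2 with EtOH (-1.93 ± 0.283 and -0.10 ± 0.186) and with EtOH + ABT-888 (-1.44 ± 0.289 and -0.17 ± 0.191). The genes overlap at their starts on opposite strands. The difference between the genes was not tested.

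A few genes made up most of the members' reads. Ncan, Tnr and Adamts3 took 59.4% of the members' CPM in Control_TRAP, and Tnr, Ncan and Bcan took 53.0% in Control_total-RNA. Per kb of exon, the highest members in Control_total-RNA were Ncan (neurocan, 46.3 ± 5.92 CPM per kb, SD, n = 3), Tnr (tenascin-R, 30.4 ± 1.96) and Bcan (brevican, 20.6 ± 2.60), followed by Hapln4 (19.9 ± 2.36), Adamts3 (6.91 ± 0.307), Hapln1 (5.66 ± 0.167), Lamc1 (5.34 ± 0.154) and Col25a1 (4.46 ± 0.308). Bcan and Hapln4 differ by less than their SD. The highest fibulin was Fbln1 at 2.35 ± 0.259 CPM per kb, with Fbln7 at 0.730 ± 0.181 and Fbln5 at 0.673 ± 0.0157. The highest fibrillar collagen was Col1a1 at 2.00 ± 0.899. Lectican genes lie near link protein genes in the mouse genome, Acan beside Hapln3 on chromosome 7, Bcan by Hapln2 on chromosome 3, Ncan by Hapln4 on chromosome 8 and Vcan by Hapln1 on chromosome 13, between 2 and 43659 bases apart.

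The net genes here are the lecticans, link proteins and tenascins, grouped by symbol and not by presence in nets. All 9 tested net genes were lower in Control_TRAP than in Control_total-RNA, where 30.4% of all genes were, with Hapln3, the 10th, under the filter. The difference was least for Ncan, with 271, 287 and 247 CPM in TRAP against 337, 374 and 289 CPM in total-RNA (-0.33 ± 0.107, adjusted p = 0.0194, edgeR). Tnr (-1.20 ± 0.103) and Hapln4 (-1.07 ± 0.112), whose product links hyaluronan and brevican in nets, came next. Vcan, Acan, Hapln1, Bcan, Tnc and Hapln2 were lower by between -1.67 and -3.03. Acan (aggrecan, the lectican of mature nets, made largely by net-bearing neurons) stood at only 0.96, 1.22 and 1.08 CPM in Control_TRAP and 5.36, 4.49 and 3.59 CPM in Control_total-RNA.

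**Figure D3:**
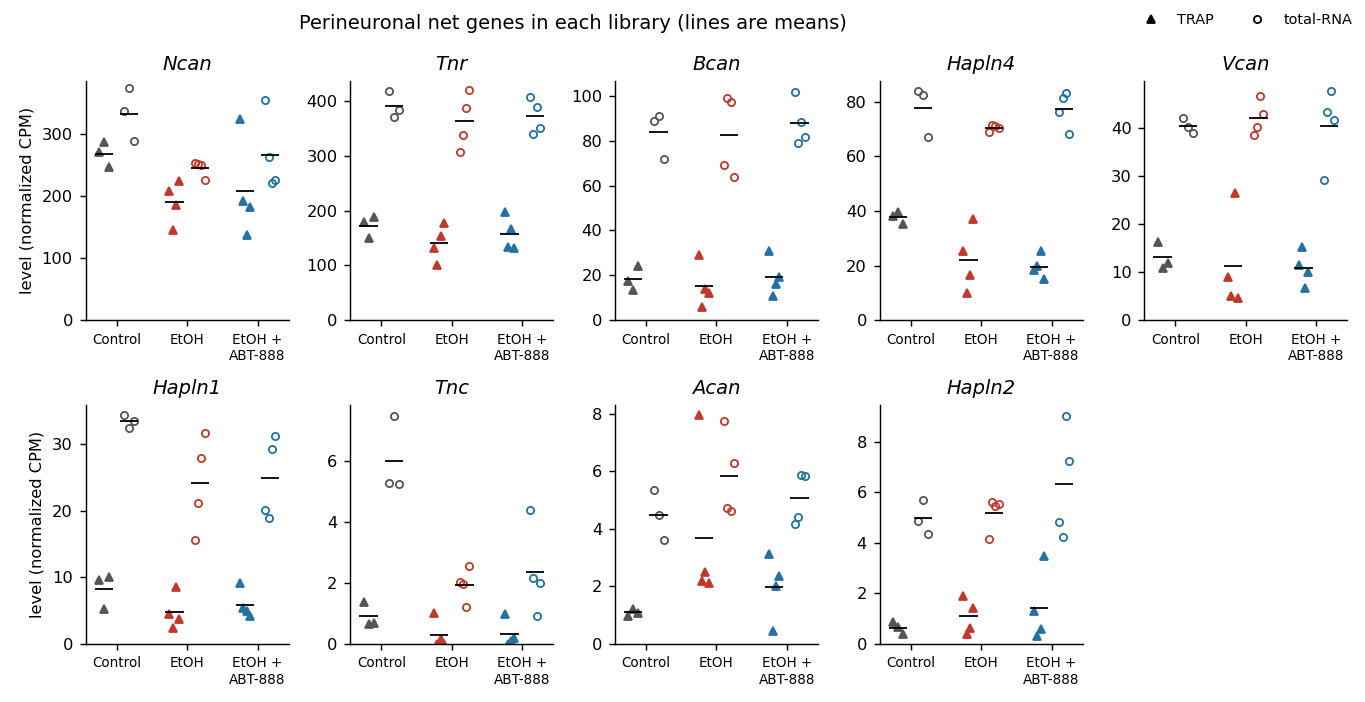
Level of the 9 tested perineuronal net genes (normalized CPM, y axis, from 0) in each library, by treatment (x axis), with TRAP as filled triangles, total-RNA as open circles and group means as lines. Tnc and Ncan in total-RNA are lower with EtOH than in Control, and Acan in TRAP has 1 EtOH library, at 7.93 CPM, far above the other 3.

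Ethanol called 2 of the 9 net genes in total-RNA, where 17.6% of all genes were called, and 0 in TRAP, where 5.24% were. Tnc (tenascin-C, a glial matrix protein of growth zones) stood at 5.28, 7.49 and 5.25 CPM in Control_total-RNA, at 2.02, 1.95, 1.22 and 2.56 CPM in EtOH_total-RNA and at 4.39, 2.16, 0.929 and 2.00 CPM in EtOH + ABT-888_total-RNA. All ethanol-treated libraries lie below all Control libraries, and the fall with EtOH was -1.63 ± 0.253 (adjusted p = 0.00159, edgeR). Ncan fell less, from 337, 374 and 289 CPM in Control_total-RNA to 254, 253, 250 and 226 CPM with EtOH (-0.44 ± 0.104, adjusted p = 0.0135), with no overlap, and the call was lost without Control_total-RNA mouse 1 (adjusted p = 0.0676) or mouse 4 (0.0957). With EtOH + ABT-888 it stood at 355, 263, 222 and 225 CPM, which overlaps Control.

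In TRAP, no net gene was called with EtOH by edgeR, and 3 of the 9 had an unadjusted p-value under 0.05. Ncan was at 208, 145, 186 and 225 CPM against 271, 287 and 247 CPM in Control (-0.47 ± 0.154, adjusted p = 0.0937), again with no overlap. Acan was at 7.93, 2.18, 2.51 and 2.11 CPM against 0.96, 1.22 and 1.08 CPM (1.74 ± 0.548, adjusted p = 0.0858), and all EtOH libraries were above all Control libraries, with that of mouse 2, the one with high glial and vascular markers, far above the rest. Without that library the Acan value was 1.08 (adjusted p = 0.175). Hapln4 was at 25.3, 9.98, 16.4 and 36.9 CPM against 38.2, 39.5 and 35.2 CPM (-0.76 ± 0.325, adjusted p = 0.186). With EtOH + ABT-888 it was at 18.2, 19.7, 25.3 and 15.2 CPM (-0.93 ± 0.209, adjusted p = 0.0852), below every Control library. Tnr, Bcan, Vcan, Hapln1 and Hapln2 were not called with EtOH in either pool.

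Over all members, the comparison of EtOH_TRAP with Control_TRAP called 5 of 67, 4 higher and 1 lower, where 5.24% of all genes were called (2.77% higher and 2.47% lower). The members' median log2 fold change was -0.13, against 0.02 over all genes, and 18 members had an unadjusted p-value under 0.05, against 23.1% of all genes. Groups did not overlap for 14 members, against 22.3% of all genes. Fbln5 was the call that was lower, and those that were higher included Col6a1, Col6a2 and Col9a3. The count fell to 0 without Control_TRAP mouse 1 or mouse 4, to 1 without Control_TRAP mouse 7 and to 3 without EtOH_TRAP mouse 5, and rose to 10 without EtOH_TRAP mouse 9. Without EtOH_TRAP mouse 2 or mouse 8 it was 4, with 2 higher and 2 lower in each of these fits. The split of 4 higher and 1 lower also moved with the test, to 5 higher and 5 lower by DESeq2, by exactTest and without the filter, and to 5 higher and 6 lower in one fit over all 22 libraries. The share of all genes called rose with these settings too, to 10.8%, 9.75%, 6.13% and 8.46% in the same order.

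Col6a1 and Col6a2 (the alpha 1 and alpha 2 chains of type VI collagen, which forms beaded filaments around cells) lie near each other on chromosome 10. Col6a1 was at 5.34, 6.31 and 7.34 CPM in Control_TRAP and at 25.2, 32.5, 61.1 and 10.7 CPM in EtOH_TRAP (2.37 ± 0.46, adjusted p = 0.0157, edgeR). Col6a2 was at 3.31, 7.26 and 7.39 CPM and at 13.2, 12.8, 14.2 and 12.1 CPM (1.13 ± 0.285, adjusted p = 0.042). Neither gene overlaps between the groups, and the EtOH mice spread widely for Col6a1 and little for Col6a2. The Col6a1 call was lost without any 1 Control_TRAP library (adjusted p between 0.0728 and 0.0856), and the Col6a2 call held in 1 of 7 fits that left out a library (adjusted p up to 0.155). With EtOH + ABT-888_TRAP, Col6a1 was at 25.3, 11.7, 67.9 and 15.1 CPM (2.26 ± 0.522, adjusted p = 0.0897) and Col6a2 at 17.2, 8.56, 25.1 and 11.0 CPM (1.37 ± 0.397, adjusted p = 0.175), all above Control but not called.

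Col6a1 was also called in total-RNA (1.22 ± 0.346, adjusted p = 0.0303, edgeR), with 8.27, 6.70 and 7.52 CPM in Control and 11.3, 27.0, 23.4 and 7.69 CPM with EtOH, which overlap. This call held without EtOH_total-RNA mouse 2 or mouse 9, and was lost in the other 5 fits that left out a library (adjusted p up to 0.113), by DESeq2 (0.0558) and in the one fit over all 22 libraries (0.328). The mice with the most Col6a1 in TRAP among those given EtOH, mice 5 and 8, also had the most in total-RNA. The same was true of mouse 10 among those given EtOH + ABT-888 (67.9 CPM in TRAP and 32.04 CPM in total-RNA). Col6a2 was not called in total-RNA (0.13 ± 0.225), nor was Col6a3 in either pool. Col9a3 (a chain of type IX collagen) rose from 0, 0.443 and 0.171 CPM in Control_TRAP, which are 0, 8 and 3 reads, to 2.69, 4.87, 2.06 and 0.476 CPM in EtOH_TRAP (3.45 ± 0.893, adjusted p = 0.0448). Its lowest EtOH library, at 7 reads, stands just above the highest Control library, the call held in 1 of 7 fits that left out a library (adjusted p up to 0.178), and its exons overlap Tcfl5 on the opposite strand.

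**Figure D4:**
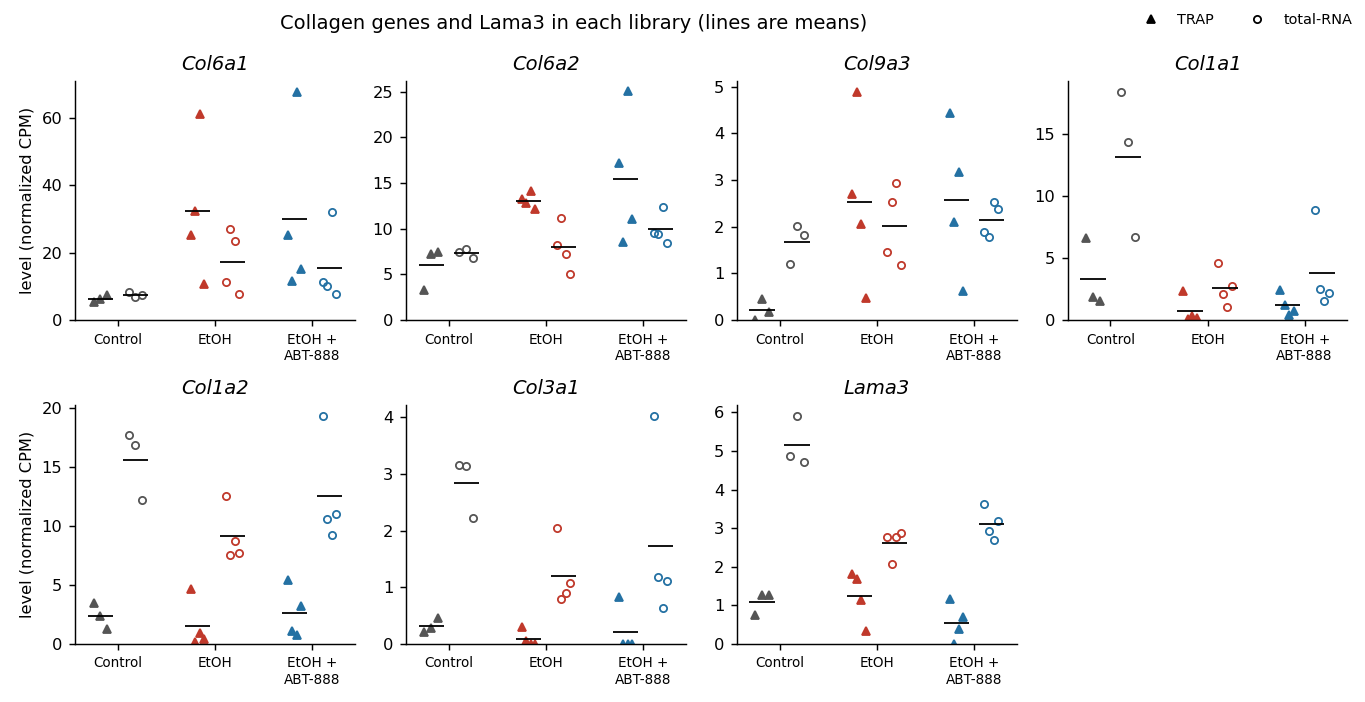
Level of 6 collagen genes and the laminin gene Lama3 (normalized CPM, y axis, from 0) in each library, by treatment (x axis), with TRAP as filled triangles, total-RNA as open circles and group means as lines. Col6a1, Col6a2 and Col9a3 are higher in EtOH_TRAP than in Control_TRAP, and Col1a1, Col1a2, Col3a1 and Lama3 are lower in EtOH_total-RNA than in Control_total-RNA.

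In total-RNA, ethanol called 18 of the 67 members, 7 higher and 11 lower, where 17.6% of all genes were called (9.04% higher and 8.60% lower). The members' median was -0.10 against 0.00 over all genes, and 30 members had an unadjusted p-value under 0.05, against 33.9% of all genes. Groups did not overlap for 23 members, against 30.5% of all genes. The count fell to 3 without Control_total-RNA mouse 1, to 4 without mouse 4, to 8 without mouse 7 and to 6 without EtOH_total-RNA mouse 5, and rose to 23 without EtOH_total-RNA mouse 9. It was 0 when all 22 libraries were fitted together, where 1.07% of all genes were called. Without Control_total-RNA mouse 1, Control_total-RNA mouse 7 or EtOH_total-RNA mouse 5, 0 members were called higher, and without Control_total-RNA mouse 4 there were 2 higher and 2 lower. Tnc and Col1a1 were called in each of the 7 fits that left out a library, and Lama3 in 6, without Control_total-RNA mouse 4 being the exception (adjusted p = 0.0574).

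Of the 6 tested fibrillar collagens, 3 were called lower and 0 higher, where 8.60% of all genes were lower. Col1a1 stood at 18.3, 14.3 and 6.71 CPM in Control_total-RNA and at 4.57, 2.11, 1.06 and 2.70 CPM in EtOH_total-RNA (-2.30 ± 0.392, adjusted p = 0.00253, edgeR). Col1a2 went from 17.7, 16.9 and 12.2 CPM to 12.6, 7.53, 8.72 and 7.74 CPM (-0.76 ± 0.198, adjusted p = 0.0205), and Col3a1 from 3.16, 3.14 and 2.22 CPM to 2.05, 0.788, 0.896 and 1.08 CPM (-1.21 ± 0.328, adjusted p = 0.0246). Col11a1 and Col11a2 had -0.52 ± 0.258 and -0.63 ± 0.274 and were not called. Col5a1 had a positive value, with 1.54, 1.52 and 1.25 CPM in Control and 1.67, 1.99, 3.01 and 1.66 CPM with EtOH, and was not called (0.54 ± 0.285, adjusted p = 0.203). EtOH and Control do not overlap for Col1a1 and Col3a1, and mouse 2 overlaps Control for Col1a2. The Col1a2 call was lost without Control_total-RNA mouse 1 (adjusted p = 0.102) or mouse 4 (0.0924) or EtOH_total-RNA mouse 5 (0.0507), and that of Col3a1 without the same 3 libraries (0.0927, 0.0967 and 0.0611) or EtOH_total-RNA mouse 8 (0.0586). The fibroblast markers had a summed level of 33.7 to 43.8 CPM in Control_total-RNA and 23.2 to 37.9 CPM in EtOH_total-RNA, with 1 of 5 called lower (Slc22a6), and their part in the collagen result was not tested. Mural markers went from between 117 and 127 CPM to between 83.6 and 102.5 CPM (1 of 6 called lower), and microglia markers from between 219 and 233 CPM to between 76.0 and 110 CPM (4 of 5 called lower). Endothelial sums overlapped, at 55.0 to 73.5 CPM and 44.1 to 69.2 CPM (2 of 5 called lower, median log2 fold change 0.07). Of the excitatory neuron markers, 3 of 6 were called lower (median -0.35). The choroid plexus list was at 111.8 CPM in the Control_total-RNA library of mouse 4 and at 7.31 and 19.3 CPM in the others.

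Also lower in EtOH_total-RNA were Lama3 (4.86, 5.91 and 4.71 CPM against 2.76, 2.08, 2.77 and 2.88 CPM), the Adamts-like genes Adamtsl1 (-0.86 ± 0.203), Adamtsl2 (-1.06 ± 0.258) and Adamtsl3 (-0.78 ± 0.207), whose products are matrix proteins without protease activity, and the proteases Adamts8 (-0.98 ± 0.265) and Adamts15 (-0.92 ± 0.286), of the same family as the lectican-cutting enzymes. All 5 Adamts-like genes had a negative log2 fold change and 3 were called lower, where 8.60% of all genes were. Groups overlapped in none of these 6 genes. The calls of Adamtsl1 and Adamtsl2 were lost without Control_total-RNA mouse 1 or mouse 4 (adjusted p up to 0.076 and 0.08). Those of Adamtsl3 and Adamts8 were lost without any 1 Control_total-RNA library or EtOH_total-RNA mouse 5 (up to 0.089 and 0.112), and that of Adamts15 also without EtOH_total-RNA mouse 8 (up to 0.156). Of the 13 Adamts proteases, 3 rose and 2 fell, where 9.04% of all genes rose and 8.60% fell.

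The members that rose, beside Fbln5 (0.72 ± 0.226, adjusted p = 0.0444, edgeR) and Col6a1, were Adamts1, Adamts2, Adamts9, Col4a1 and Col8a1. Adamts1 (a lectican-cutting protease) stood at 8.23, 7.67 and 9.12 CPM in Control and at 16.9, 20.2, 15.1 and 8.05 CPM with EtOH (0.86 ± 0.244, adjusted p = 0.0305), and mouse 9 overlaps Control. In EtOH + ABT-888_total-RNA it was at 7.16, 36.3, 29.5 and 15.5 CPM. Adamts9, a related protease, was at 3.12, 2.97 and 3.25 CPM in Control, at 6.36, 6.65, 4.28 and 3.91 CPM with EtOH (0.78 ± 0.231, adjusted p = 0.0364) and at 2.80, 18.2, 11.97 and 8.71 CPM with EtOH + ABT-888. In both genes, mouse 3 was the lowest and mouse 6 the highest of the EtOH + ABT-888 group. Adamts2 rose by 0.69 ± 0.22, Col8a1 (a collagen of vessels) by 0.72 ± 0.232 and Col4a1 by 0.68 ± 0.217, of which only Col4a1 overlaps Control, while Col4a2 had 0.47 ± 0.158 (adjusted p = 0.0587). Of the 7 fits that left out a library, Adamts1 was called in 1, without EtOH_total-RNA mouse 9 (adjusted p up to 0.117 in the others). Adamts9 was called without EtOH_total-RNA mouse 8 or 9 (up to 0.132), Adamts2 and Col8a1 without EtOH_total-RNA mouse 2 or 8 (up to 0.17 and 0.154), and Col4a1 without Control_total-RNA mouse 4 or EtOH_total-RNA mouse 9 (up to 0.201).

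**Figure D5:**
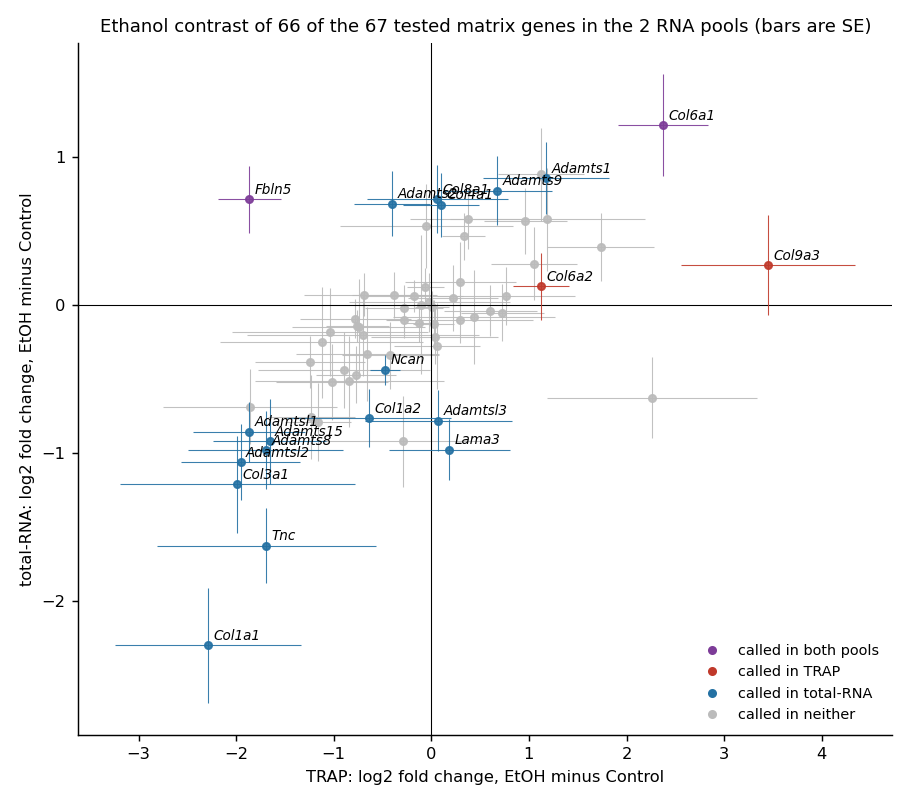
Log2 fold change of EtOH minus Control for 66 of the 67 tested members in TRAP (x axis) and in total-RNA (y axis), with SE as bars, coloured by the pool in which a gene was called. Fbln5, called in both pools, is at -1.86 in TRAP and 0.72 in total-RNA, Col6a1 is above 0 in both, and Adamts2, called in total-RNA alone, is at -0.40 and 0.69.

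Fbln5 and Col6a1 were called in both pools, with the limits given above for their calls in each. Of the 18 members called in total-RNA and the 5 called in TRAP, Fbln5 alone passed the test of the difference between pools, so for no other member is a difference in response between the pools shown. Adamts2 had -0.40 ± 0.39 in TRAP and 0.69 ± 0.22 in total-RNA, and Col11a2 had an interaction of 2.88 ± 1.04 at levels of 0.0554 to 0.228 CPM in Control_TRAP (adjusted p = 0.876, edgeR).

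Genes that make, cut or bind the matrix were listed beside the members, and their counts with EtOH stand beside 5.24% of all genes called in TRAP and 17.6% in total-RNA (9.04% higher and 8.60% lower). Among 11 genes of collagen making, P4ha1 (a subunit of prolyl 4-hydroxylase, which stabilizes the collagen helix) was lower with ethanol in TRAP (36.3 against 92.0 CPM, -1.32 ± 0.187, adjusted p = 0.00408, edgeR), where P4hb, its partner subunit, was higher (0.70 ± 0.182). In total-RNA, P4ha1 (-1.07 ± 0.194) and Serpinh1, the collagen chaperone (-1.14 ± 0.146), were lower. P4ha1 stayed lower than Control in EtOH + ABT-888_TRAP (-1.28 ± 0.219, adjusted p = 0.0322). Among 10 tested matrix metalloproteinases and their inhibitors, total-RNA had Timp1 (2.76 against 0.241 CPM), Timp3, Timp4 and Mmp9 higher and Mmp17 lower with EtOH, and TRAP had Timp2 higher (0.90 ± 0.188) and Mmp17 lower (-0.92 ± 0.172). Of 15 tested matrix receptors, Itga5 (the fibronectin receptor chain, -1.03 ± 0.236) was lower in TRAP, and Itgb5 and Ddr2 were lower in total-RNA. Of 9 basement membrane partners, 2 were higher in total-RNA, Sparc and Smoc1, and of 8 tested hyaluronan genes 1 was, Cemip2, with 0 of either list called in TRAP.

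With EtOH + ABT-888, 0 of the 67 members were called against Control in TRAP, where 0.476% of all genes were, by edgeR's quasi-likelihood test. Without adjustment, 12 members had a p-value under 0.05 (12.1% of all genes), and DESeq2 called 6 (2.99% of all genes) and exactTest 4 (2.26%). The 6 named by the smallest p-values were Col6a1, Col9a3 (3.46 ± 0.897) and Col6a2, which were higher, and Hapln4, Adamtsl5 (-1.13 ± 0.303, adjusted p = 0.138) and Adamtsl2 (-1.68 ± 0.558, adjusted p = 0.241), which were lower, none of them called. Of these, DESeq2 called Col6a1, Col9a3, Col6a2, Hapln4 and Adamtsl5. Fbln5 had -0.88 ± 0.3 (adjusted p = 0.253, edgeR), with every EtOH + ABT-888_TRAP library below every Control_TRAP library. Without the EtOH + ABT-888_TRAP library of mouse 3 or of mouse 10 the test called 2 members.

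In total-RNA, EtOH + ABT-888 also gave 0 called members by edgeR, where 0.263% of all genes were called, with 16 at an unadjusted p-value under 0.05 (15.9% of all genes), 5 called by DESeq2 (4.41% of all genes) and 7 by exactTest (3.87%). The smallest p-values belonged to Adamts2 (11.5 against 5.94 CPM, 0.96 ± 0.232, adjusted p = 0.104), Fbn1 and Adamts9 (1.75 ± 0.487, adjusted p = 0.141), which were higher, and to Lama3 (-0.73 ± 0.198, adjusted p = 0.133), Tnc (-1.34 ± 0.403, adjusted p = 0.16) and Col1a1 (-1.80 ± 0.54, adjusted p = 0.16), which were lower. None of the 6 passed. Groups did not overlap for 12 members, against 16.9% of all genes. Without the EtOH + ABT-888_total-RNA library of mouse 3 the test called 7 members, and without that of mouse 10 it called 1.

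The direct comparison of EtOH + ABT-888 with EtOH called 0 members in TRAP and 0 in total-RNA by edgeR, DESeq2 and exactTest, where edgeR called 0% of all genes in each. Without adjustment, 3 members in TRAP (0.966% of all genes) and 4 in total-RNA (1.91%) had a p-value under 0.05. In TRAP these were Adamts9 (1.16 ± 0.431), Fbln5 (4.06 against 2.05 CPM, 0.98 ± 0.385, adjusted p = 1, edgeR) and Adamtsl1 (1.42 ± 0.631). Groups did not overlap for 2 of the 67 members in TRAP, Fbln5 and Adamtsl1, against 0.945% of all genes, and for 1 in total-RNA, Adamts10, against 1.36%. The comparisons of EtOH and of EtOH + ABT-888 with Control share the Control libraries, and their values are given side by side without a test of likeness.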

How the data were processed

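Per the labels and the study's methods, the authors aligned reads with STAR to mm10 and counted them with featureCounts, and the deposited table holds raw counts per gene for 22 libraries of 11 mice. Versions and the strand setting are not given in the sources used here. Symbols and positions came from GENCODE M21 by gene ID (38872 of 39056 found). Genes with at least 500 counts in total, detected in at least 3 libraries, were kept (14072). Libraries were compared with edgeR 4.0.16 in R 4.3.3 (TMM factors, quasi-likelihood test, Benjamini-Hochberg adjustment over all genes tested), with only the groups compared in each fit and all 22 libraries in the interactions. The scripts were tested on simulated data. TRAP and total-RNA libraries of a mouse come from the same animal, but the main fits and the interactions held no term for the mouse. They treated the libraries as separate, and the mouse block was run as an alternative. The deviations of each pair from their group means correlated at between 0.102 and 0.622. p-values measure the spread between these mice. Depth limits members under about 1 CPM.

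The alternatives were DESeq2 1.42.0, exactTest, RLE factors, no filter, one fit over all libraries, a mouse block and leaving out each library. Members and lists were chosen with earlier results of these data known. Named genes were all fibulins and tested perineuronal net genes, called members (up to 15 in a direction), the 8 members with the largest fold in each direction of TRAP against total-RNA among calls without overlap, the 3 highest per length in each group, and, where a comparison with Control called fewer than 3, the 3 smallest p-values in each direction. Others are named as partners of these. The values of 1 tested member are not reported here, and the counts include it.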

Additional observations from a re-analysis of the deposited data

Results flagged for a closer look

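In groups of 4 libraries, 1 library lay far from the other 3 (by Dixon's criterion) in 19 of 208 checks over 52 named genes, or 9.13%, where chance gives about 1 in 20. Of these, 6 were in the EtOH_TRAP library of mouse 2, whose astrocyte, endothelial, fibroblast and microglia marker sums were the highest of its group. It stood at 7.93 CPM for Acan (2.11 to 2.51 in the others), 5.24 CPM for Lamb2 (0.511 to 1.29), 4.66 CPM for Col1a2 (0.186 to 0.885), 2.33 CPM for Col1a1 (0.0464 to 0.295), 1.02 CPM for Tnc (0 to 0.147) and 0.291 CPM for Col3a1 (0 to 0.0464). The part of the marker genes' cells in these values was not tested. In the same group, Adamtsl1 was lowest in mouse 8, at 0.246 CPM against 0.680 to 0.728 CPM.

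In EtOH_total-RNA, mouse 2 was high for Fn1 (66.4 CPM against 34.9 to 40.1 CPM) and Adamtsl4 (2.40 against 1.55 to 1.64 CPM) and low for Hapln2 (4.13 against 5.46 to 5.61 CPM). Mouse 9 was high for Lamb1 (30.1 against 19.2 to 20.6 CPM) and low for Ncan (226 against 249.7 to 254 CPM), and mouse 5 was low for Lama3 (2.08 against 2.76 to 2.88 CPM).

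With EtOH + ABT-888, mouse 3 was high in TRAP for Col6a4 (7.05 against 2.95 to 3.15 CPM) and Col3a1 (0.820 CPM, with the others at 0), and in total-RNA for Col1a1 (8.82 against 1.56 to 2.50 CPM) and Col3a1 (4.02 against 0.630 to 1.17 CPM). Its summed fibroblast markers were the highest of the group in both pools (10.6 CPM in TRAP and 54.6 CPM in total-RNA). In total-RNA, mouse 10 was high for Col6a1 (32.04 against 7.84 to 11.4 CPM) and Col19a1 (25.2 against 16.3 to 16.9 CPM).

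The response of Fbln5 to ethanol differed between TRAP and total-RNA by the interaction test (-2.60, adjusted p = 0.00392, edgeR).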

How the results depend on the processing

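Alternatives were run for the counts, for the members' medians (RLE factors and no filter) and for the named genes, and not for the other genes with a value in the text. Named genes kept their direction wherever they were called. Of 2800 fits of named genes, 103 changed direction, for 38 values of which 0 were called. Those in the comparisons of EtOH with Control changed when a library was left out, and ranged from -1.06 to 0.0748 for Vcan in EtOH_TRAP and, in EtOH_total-RNA, from -0.157 to 0.0414 for Fbln1, -0.335 to 0.112 for Fbln2, -0.122 to 0.0759 for Bcan and -0.0262 to 0.172 for Hapln2. The count of members called in EtOH_TRAP against Control_TRAP, 5, became 10 without the filter, 10 by DESeq2, 10 by exactTest and 11 in one fit over all 22 libraries, where the share of all genes called went from 5.24% to 6.13%, 10.8%, 9.75% and 8.46%. Without the filter, members beyond the 67 were tested too. For EtOH + ABT-888_TRAP against Control_TRAP, 0 became 6, 6, 4 and 3 in the same order, where the share of all genes went from 0.476% to 1.91%, 2.99%, 2.26% and 2.86%. For EtOH_total-RNA against Control_total-RNA, 18 became 0 in the one fit, where the share of all genes went from 17.6% to 1.07%. For EtOH + ABT-888_total-RNA, 0 became 6 without the filter, 5 by DESeq2 and 7 by exactTest, where the share of all genes went from 0.263% to 1.99%, 4.41% and 3.87%. The cause was not tested.

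Leaving out 1 library at a time gave between 46 and 52 called members for TRAP against total-RNA in Control mice, 42 and 52 in EtOH mice and 35 and 49 in EtOH + ABT-888 mice. It gave between 0 and 10 for EtOH_TRAP, 0 and 2 for EtOH + ABT-888_TRAP, 3 and 23 for EtOH_total-RNA and 0 and 7 for EtOH + ABT-888_total-RNA, each against Control. The direct comparisons stayed at 0, the EtOH interaction at 1 and that of EtOH + ABT-888 at 0. With the mouse as a block, TRAP against total-RNA called 53 members in Control mice, 57 in EtOH mice and 53 in EtOH + ABT-888 mice, where 62.5%, 58.8% and 54.3% of all genes were called. The interactions called 1 and 0 members, where 0.0995% and 0% of all genes were. Among named genes the block added the calls of Acan in EtOH mice (-0.88, adjusted p = 0.0313) and of Fbln7 (-2.001, 0.0271) and Ncan (-0.40, 0.011) in EtOH + ABT-888 mice, all edgeR, and ended none. The next counts cover 141 of the 208 values of named genes, those in comparisons with a value in the text. Of their alternatives that kept all libraries, 704 kept their side of the threshold, 47 gained a call and 24 lost one, most of these in the one fit. Of their fits that left out a library, 913 kept their side, 14 gained a call, 112 lost one and 14 changed direction. Members at few counts, such as Col9a3 and Fbln7 in TRAP, are limited by depth.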
